A study of Vicia sativa with 8 samples.

Results

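The WRKY transcription factors of common vetch (Vicia sativa), a legume with a zygomorphic flower, were examined across 8 organs. The members were the unigenes, that is assembled transcript sequences, whose deposited best protein match in the nr database carried the word WRKY in any case. This rule gave 97 of the 71553 unigenes with at least 1 read. All plants were of cultivar Lanjian 3. The carpels, the stamens, the sepals and the dorsal, lateral and ventral petals came from flowers at floral stage 12 on greenhouse plants of about 45 days, dissected from flowers pooled over many plants. Leaves and roots came from 2-week-old seedlings, so that organ and plant age cannot be told apart wherever a floral organ is set beside leaves or roots. RNA was sequenced as 1 library for each of the 8 organs. With no replicates, every value below describes a library, organs could not be tested against each other, and 95% intervals cover counting error alone.

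WRKY proteins are a large plant family of transcription factors. Each carries a WRKY domain, named for a conserved stretch of amino acids and closed by a zinc finger, and binds DNA elements called W-boxes. Members are known above all for switching defence genes on and off after infection. Others act in senescence, in responses to drought, salt or nutrient shortage, in secondary metabolism, and in trichome and seed development. Several are bound by VQ motif proteins or phosphorylated by MAP kinases, and many respond to salicylic acid. The number in a WRKY name is given within a species, so the names below say which protein a vetch unigene resembled most and not which orthologue it is.

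Members were 158 to 2056 bp long with a median of 447 bp, against a median of 302 bp over all unigenes, and 12 reached 1 kb. They held 67509 uniquely aligned reads in all, from 4 to 4191 per member with a median of 483, against a median of 236 over all unigenes. Reads were found in all 8 libraries for 73 members (75.3%, against 66.9% of all unigenes). Of the 97, 81 had at least 100 reads over the 8 libraries and 16 had fewer. The best match came from Arabidopsis for 25 members, from rice for 16, from another legume for 15 and from poplar for 9. For 28 members its E-value was above 1e-10, the weakest being 8e-06, so that the name of these members rests on a short or distant match. The 97 members fell on 83 distinct nr proteins. Of these proteins, 10 were shared by 2 members and 2 by 3 members.

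Levels are given as RPKM, the reads of a unigene scaled to a length of 1 kb and to 1000000 uniquely aligned reads in its library. The library totals had a median of 5706811 uniquely aligned reads and lay between 93.8% (leaves) and 110% (sepals) of it, and 3 reads, the floor used for a count of 0 in place of the higher bound of an exact two-sided interval, stand for 0.478 to 0.561 RPKM at a length of 1 kb. Marker lists drawn from the nr texts were read as a check of the organ labels. The summed RPKM of 18 unigenes for chlorophyll-binding proteins and Rubisco was 31614 in leaves and between 1035 and 8918 elsewhere. A pair of B-class floral genes summed to between 626 and 937 RPKM in petals and stamens and to at most 11.8 in the other organs, and 3 C- and D-class genes summed to 344 in stamens, 260.0 in carpels and at most 11.8 elsewhere. The list of 134 root and nodule names did not single out the roots, with 7990 RPKM there and 8992 in lateral petals, and so checks nothing. TMM factors, which correct for a library's make-up, were 0.773 for leaves, 0.822 for carpels and 0.998 to 1.13 for the other organs.

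Reads on the family as a whole were most frequent in the roots and least frequent in the leaves. Per 1000000 uniquely aligned reads (RPM), members took 2006 in roots (exact Poisson 95% interval 1970 to 2043), 1657 in ventral petals (1624 to 1691) and 1611 in carpels (1577 to 1645). The order went on with 1530 in sepals, 1495 in stamens, 1405 in dorsal and 1323 in lateral petals, and ended with 775 in leaves (751 to 799). Roots thus held 2.59 times the leaf share (95% interval 2.50 to 2.68). Neighbours in the order that did not differ beyond counting error were ventral petals and carpels, at a ratio of 1.03 (0.999 to 1.06), and sepals and stamens, at 1.02 (0.993 to 1.05). The first place depended on the scaling. With TMM-rescaled totals carpels led at 1961 RPM before roots at 1857, while leaves stayed lowest at 1002, and the RPKM summed over members was also higher in carpels (3703) than in roots (3602). In whole organs such as these, fewer cells of a type and less RNA per cell cannot be told apart.

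**Figure D1:**
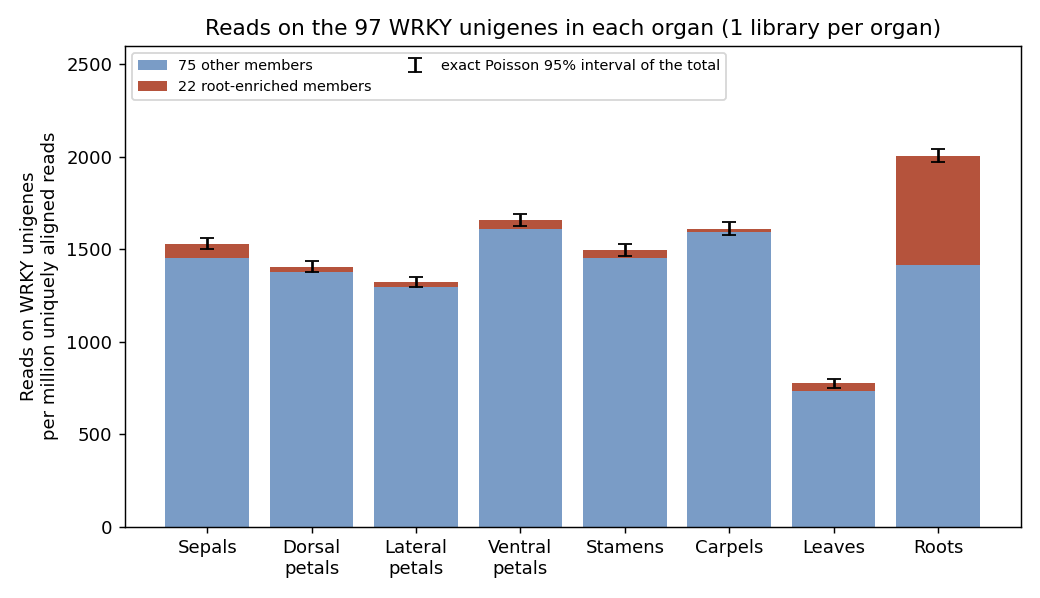
Bars give the reads on the 97 WRKY unigenes per 1000000 uniquely aligned reads (vertical axis) in each organ's single library, split into the 22 members called root-enriched (red) and the 75 others (blue), with whiskers for the exact Poisson 95% interval of the total. Roots reach 2006 and leaves 775. The red part is 591 in roots against at most 76.9 in any other organ, a direction set by the rule that picked these members.

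The median member, in contrast, was far from uniform over the organs. It lay at 27.1 RPKM in roots, 19.3 in ventral petals, 16.9 in stamens, 16.8 in sepals, 13.9 and 12.1 in dorsal and lateral petals, 7.57 in carpels and 6.40 in leaves. In carpels a low median stood beside 15 members above 100 RPKM, the most of any organ, while no member passed 100 RPKM in leaves. Roots had 74 members above 10 RPKM and leaves 36. The same medians and counts over all unigenes are not given. These values therefore have no background and are not read as a trait of the family. Among members with at least 100 reads the RPKM had a coefficient of variation over the 8 organs with a median of 0.808, against 0.591 over the 44987 unigenes with as many reads.

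A unigene was called enriched in an organ when its RPKM there was more than 2 times that of every other organ (the Ratio) and lay more than about 3.8 sample SDs above their mean (the Z-score). For combinations the RPKM of the target organs was averaged. The petals category joined the 3 petal types. Petals were joined with sepals for the A domain and with stamens for the B domain, and the C domain took carpels and stamens. Roots stood out: 22 of 97 members (22.7%) were called enriched there, against 6.18% of all unigenes. The same rule called 4 members in carpels (5.61% of all unigenes), 2 in dorsal petals (0.646%) and 1 in leaves (4.03%). It called 0 in sepals (1.2%), lateral petals (0.608%), ventral petals (1.29%) and stamens (3.93%). Among the combinations it called 4 each for the A domain (5.31%) and the B domain (10.9%), 3 for the C domain (4.72%) and 2 for petals (4.95%). In all, 34 members were enriched in some organ or combination, 22 of them in roots, and 63 in none. The same total over all unigenes is not given, so the 34 have no background. Among members with at least 100 reads over the 8 libraries, 15 of 81 (18.5%) were called root-enriched, against 4.63% of all unigenes with as many reads.

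**Figure D2:**
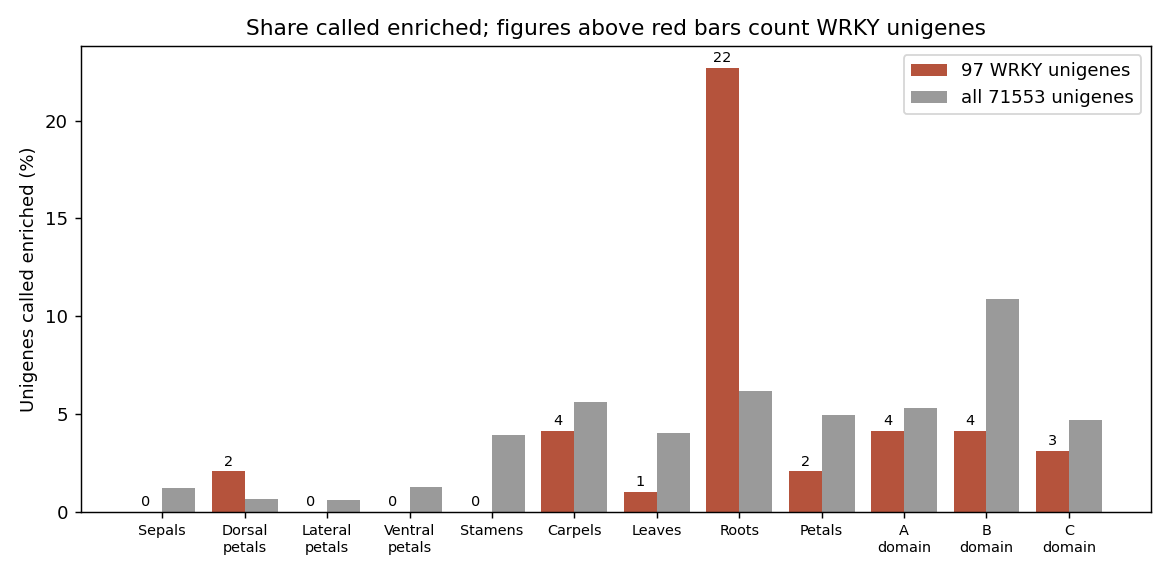
Pairs of bars give the percentage called enriched (vertical axis) among the 97 WRKY unigenes (red, with their number above) and among all 71553 unigenes (grey), for 8 organs and 4 combinations of organs. In roots 22.7% of members stand beside 6.18% of all unigenes, and no other target gives members more than 4.12%.

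The 22 root-enriched members spanned 7.10 to 169 RPKM in roots, with a median of 29.4 there and a median of at most 3.86 in any other organ. The direction of this gap follows from the rule that picked them. They carried 29.5% of all root reads on the family. In 21 of the 22 a second organ could be named, and it was the sepals for 9, leaves and stamens for 4 each, carpels for 3 and dorsal petals for 1. Carpels and dorsal petals each held no read for 8 of them, and lateral petals for 6. Carpels held less than 1 RPKM for 12. Of all 71553 unigenes, 59826 had a read in carpels, the fewest of any library. Shares without a read are not given for unigenes called root-enriched outside the family, so these counts are not read as a trait of the members. The call rested on at least 10 root reads in 21 members and on at least 100 in 12. A Ratio above 4 was reached by 15, and 3.27% of all unigenes were called root-enriched at that Ratio. The same 22 members were called with TMM factors, with DESeq2 size factors and with 1 RPKM added to every value.

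The highest root level among these 22 was that of Unigene50854, 321 bp long and most like wheat WRKY28. It stood at 169 RPKM in roots (316 reads), 10.4 in sepals, 7.57 in leaves, 2.86 in carpels, 1.10 in ventral petals, 0.580 in stamens, 0.540 in dorsal petals and 0.529 in lateral petals. Roots were 16.2 times the sepals, with a 95% interval of 10.4 to 26.5. Unigene58635, matched to rice Os01g0730700, followed at 93.2 RPKM in roots (239 reads), 7.98 in sepals and 3.41 in leaves, was below 1 in stamens, dorsal and lateral petals, and had no read in ventral petals and carpels. Its ratio of roots to sepals was 11.7 (7.54 to 19.0). In both members sepals and leaves, the green organs, came next after roots.

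A further root member with a third-ranking level, Unigene64814 (rice Os01g0750100), was less exclusive. It had 68.2 RPKM in roots, 18.2 in sepals, 15.4 in leaves, 9.28 in ventral petals, 7.15 in dorsal petals, 6.80 in stamens, 6.20 in lateral petals and 0.875 in carpels, and the ratio of roots to sepals had a 95% interval of 2.88 to 4.95. Unigene15803 resembled WRKY14 of Arabidopsis lyrata, a protein of the WRKY group known as IIe. It stood at 64.9 RPKM in roots and between 2.02 (carpels) and 5.73 (sepals) in all 7 other organs, 11.3 times the sepals (8.04 to 16.4). The 7 other organs were low but not level, with sepals at 2.83 times the carpels (1.41 to 6.17).

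Unigene17212, 1849 bp long and matched to Medicago truncatula WRKY100630, was close to a root-only transcript in these libraries. Of its 666 reads 661 were from roots, 3 from leaves and 1 each from sepals and stamens. Its level was 61.2 RPKM in roots, 0.303 in leaves, 0.101 in stamens and 0.0861 in sepals, and no read was found in any petal type or in carpels. Roots were 202 times the leaves (68.8 to 982). Its coefficient of variation, 2.80, was the highest among the 56 members with at least 400 reads. Unigene63927, named after its values were seen, had nearly the same profile: 115 of 116 reads were from roots (33.3 RPKM) and 1 from carpels. Its best match was a WRKY factor of Picrorhiza kurrooa, a different protein, and Pearson's r of log2(RPKM + 1) between the pair was 0.99 over the 8 organs. Both were picked as high in roots and had almost no reads elsewhere. An r near 1 follows from that choice and is no separate sign of a shared profile.

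Root enrichment extended to a member that resembles a resistance protein. Unigene69847 matched Arabidopsis TTR1, which joins a WRKY domain to the TIR-NBS-LRR architecture of intracellular immune receptors and is known for tolerance to a ringspot virus. It stood at 38.8 RPKM in roots (249 reads), 9.56 in sepals, 8.22 in ventral petals, 5.93 in stamens, 4.79 in lateral petals, 2.21 in dorsal petals, 0.502 in carpels and 0.170 in leaves (1 read). Roots were 4.06 times the sepals (3.08 to 5.41). The 3 members matched to Arabidopsis WRKY19, a protein that likewise joins resistance-protein domains to a WRKY domain, had only 14 to 46 reads in all. Their root levels were 13.2, 6.91 and 3.63 RPKM, the highest of their 8 organs in each but within counting error of the next organ, on 14 reads against 12, 9 against 8 and 5 against 4. None was called enriched. Which part of its match Unigene69847 or these 3 members resembled was not examined, so a WRKY domain in them is not shown.

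Other root-enriched members resembled proteins with known roles in defence signalling or in the IIe group. Except for Unigene62580, which the rule for naming picked, these were named after their values were seen. Unigene9191, like Arabidopsis WRKY58, which acts in systemic acquired resistance, had 27.1 RPKM in roots and 2.74 to 5.94 elsewhere. Unigene62580, like Arabidopsis WRKY51, which takes part in the repression of jasmonate signalling by salicylic acid, had 23.7 RPKM in roots, 7.23 in leaves, 1.47 in sepals, at most 0.686 in stamens and ventral petals, and no read in dorsal petals, lateral petals and carpels.

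Among relatives of the IIe group, Unigene13481 (Arabidopsis WRKY35) had 24.9 RPKM in roots and at most 1.13 elsewhere, 22.1 times the stamens (8.35 to 82.7). The 2 members matched to WRKY65 of Arabidopsis lyrata were both root-enriched. Unigene64228 stood at 51.5 RPKM in roots and 11.3 in sepals, and Unigene45521 at 19.4 in roots and 8.16 in sepals. In Unigene45521 the second place of sepals was within counting error of stamens (7.50 RPKM), on 14 reads against 11.

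The remaining 10 root-enriched members follow, also outside the rule for naming. Unigene15337 (a poplar WRKY) had 29.9 RPKM in roots and at most 1.62 elsewhere, Unigene26167 (Brassica napus WRKY35) 39.5 in roots and 16.7 in stamens, Unigene5236 (wheat WRKY7) 32.6 in roots and 7.68 in carpels, and Unigene16412 (a rice WRKY) 28.9 in roots and 11.9 in sepals. Unigene47135 (a poplar WRKY4) had 18.6 in roots and 6.51 in stamens, and Unigene58998 (soybean WRKY36) 12.6 in roots and at most 0.418 elsewhere. The gap to the next organ thus ran from narrow to nearly complete. Calls on few root reads were Unigene30236 with 8, Unigene5204 with 11, Unigene39734 with 16 and Unigene22611 with 17. Unigene5204 had no read outside the roots, and the ratio of Unigene30236 to its next organ, 3.67, had an interval of 0.732 to 35.4, which includes equal levels.

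**Figure D3:**
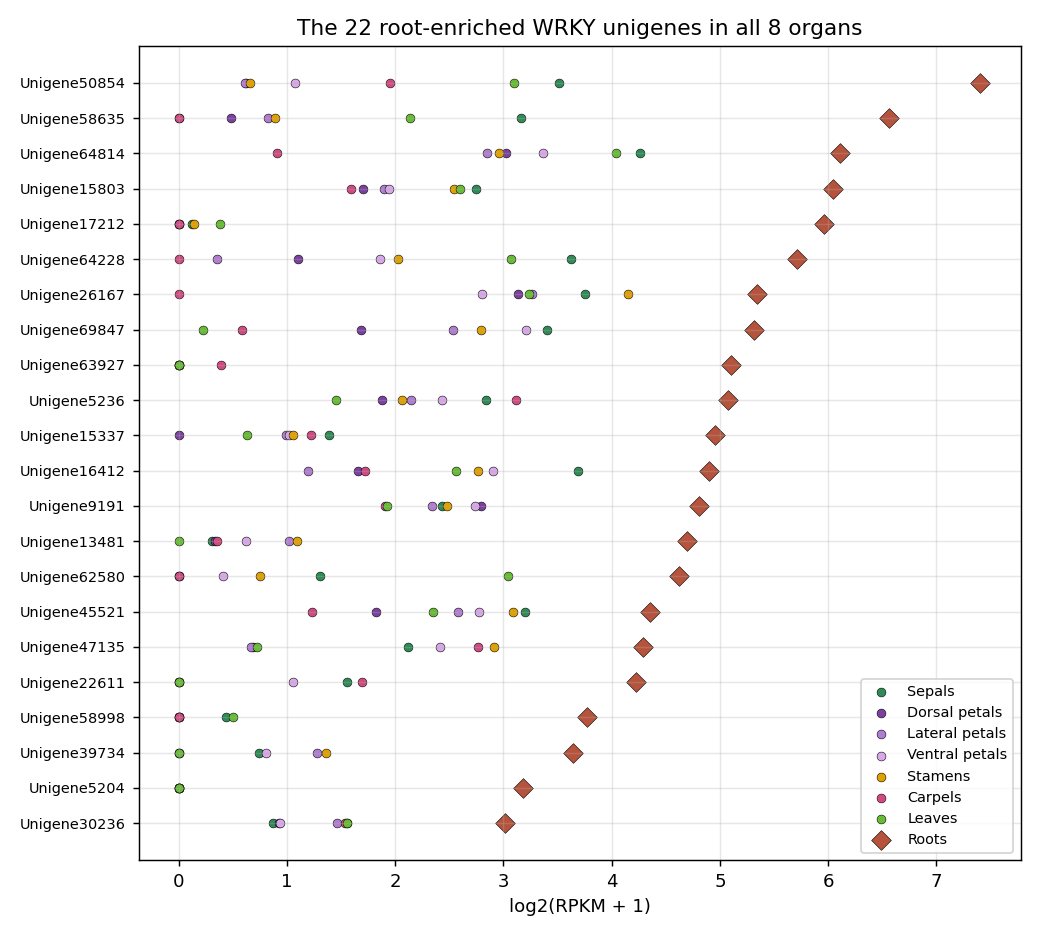
Each row is 1 of the 22 root-enriched WRKY unigenes and each point its log2(RPKM + 1) in 1 organ's library (horizontal axis), with red diamonds for roots and circles for the 7 other organs. The rule that picked the 22 rows places the diamond to the right of every circle, so only the margin is informative. It is wide in Unigene17212 (61.2 RPKM against at most 0.303) and narrow in Unigene26167 (39.5 against 16.7).

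Roots were set against leaves, the other organ taken from seedlings. Comparisons of 2 organs or groups of organs used the ratio of mean RPKM over unigenes with at least 20 reads on the higher side, and a ratio of at least 2 was counted. Of 72 members so compared, 51 (70.8%) were at least 2-fold higher in roots, against 37.0% of all unigenes compared, and 6 (8.33%) were at least 2-fold higher in leaves, against 21.2%. The median member had a log2 ratio of roots to leaves of 2.31 on the log2(RPKM + 1) scale, and the median over all unigenes compared was 0.53. TMM factors took the latter to 0.08 and the members' median to 1.86, leaving 49 members higher in roots and 9 higher in leaves. Among members with a leaf read, the largest ratio was that of the TTR1-like Unigene69847, 228 times higher in roots than in leaves on 249 reads against 1 (40.6 to 9050). Unigene63927 and Unigene13481 had 0 leaf reads and were at least 35.1-fold and 29.3-fold higher in roots against a floor of 3 leaf reads.

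**Figure D4:**
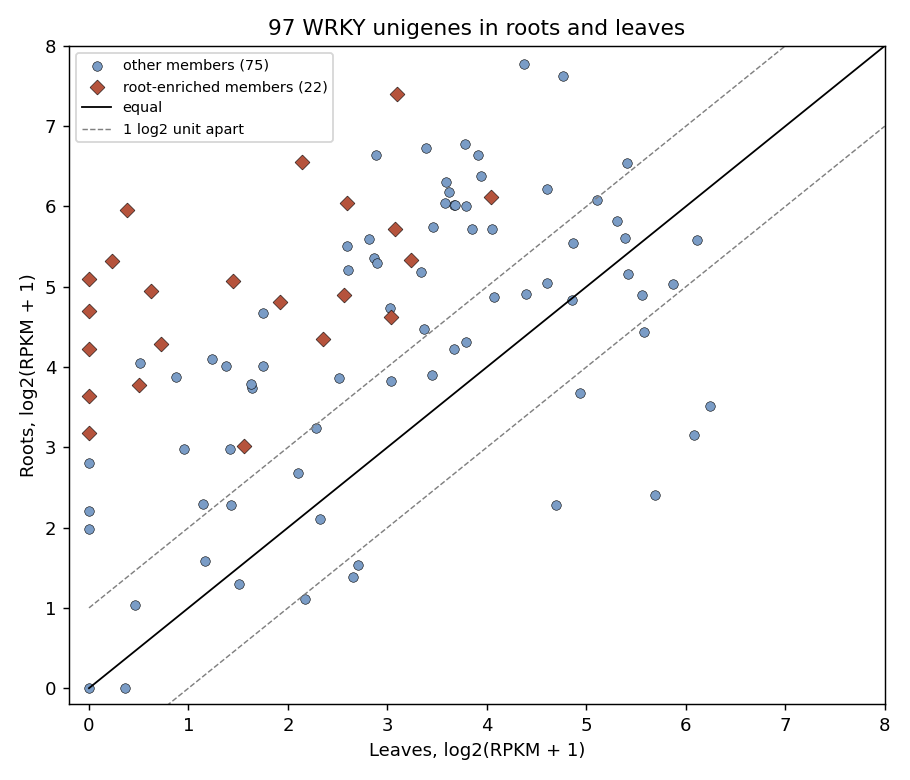
Each point is 1 of the 97 WRKY unigenes, placed by log2(RPKM + 1) in leaves (horizontal axis) and roots (vertical axis), with the 22 root-enriched members as red diamonds, a solid line for equal values and dashed lines 1 log2 unit away. Of the 97 points 63 lie above the upper dashed line, and the lowest right points include the leaf-higher Unigene50483 (50.7 RPKM in leaves, 4.32 in roots).

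Leaves were the organ in which the family was lowest. Among the 81 members with at least 100 reads, 34 (42.0%) had their lowest RPKM in leaves, against 24.2% of all unigenes with as many reads, and 4 had their highest there, against 12.3%. With TMM, 27 members were lowest in leaves, against 15.8% of all unigenes. Of the 4 members highest in leaves, 3 shared the best match rice Os03g0758900. Unigene9297 stood at 74.8 RPKM in leaves, 37.6 in sepals, 19.9 in carpels, 19.1 in dorsal and 17.2 in lateral petals, 12.4 in both ventral petals and stamens, and 10.5 in roots. Unigene50483 stood at 50.7 in leaves, 28.1 in sepals and 4.32 in roots, and Unigene25111 at 67.0 in leaves, 35.1 in carpels, 30.4 in sepals and 7.92 in roots. The leaf level was 7.14, 11.7 and 8.46 times the root level in turn, with lower bounds of 4.99, 5.69 and 4.04, which is the opposite direction to the 51 members higher in roots. The fourth member was Unigene11992, like a poplar WRKY33, and the single one called leaf-enriched: 24.9 RPKM in leaves, 11.4 in sepals, 5.50 in carpels, 3.85 in roots and 1.06 to 2.54 in petals and stamens. Its ratio of leaves to sepals was 2.18 (1.52 to 3.16), and no leaf call remained at a Ratio above 4.

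The 6 floral organs together were then set against leaves and roots. Of 87 members, 25 (28.7%) were at least 2-fold higher in flowers, against 26.7% of all unigenes compared, and 23 (26.4%) were at least 2-fold higher in leaves and roots, against 13.9%. The members' median log2 ratio was 0.01 and that of all unigenes 0.21. The seedling side averages unlike organs. Of 72 members compared between them, 51 were at least 2-fold higher in roots and 6 in leaves, so the 26.4% does not describe leaves alone. At the floral end stood Unigene65237, matched to Arabidopsis WRKY18, a factor that modulates basal defence together with WRKY40 and WRKY60. It had 178 reads in floral organs and 1 in leaves and roots, a ratio per read depth of 57.9 (10.3 to 2300). At the other end Unigene17212 had 2 floral reads against 664, a ratio of 1020 (281 to 8444).

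Arabidopsis WRKY40, which represses basal defence and abscisic acid responses, was the best match of Unigene63817. This member, named after its values were seen, stood at 135 RPKM in ventral petals, 87.7 in stamens, 80.5 in dorsal petals, 55.0 in sepals, 49.1 in carpels, 41.9 in lateral petals, 3.50 in leaves and 1.17 in roots. Every floral organ was thus at least 41.9 RPKM while neither seedling organ passed 3.50. Of the 2 members matched to WRKY40 of Arabidopsis lyrata, Unigene53319 was at 87.2 RPKM in stamens, 82.5 in ventral petals, 15.2 in roots and 1.60 in leaves. Unigene26383, 179 bp long, was flatter, from 38.6 RPKM in leaves to 126 in ventral petals.

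Carpels held the highest RPKM of 17 of the 81 members (21.0%), against 16.6% of all unigenes with as many reads, and at the same time the lowest RPKM of 20 (24.7%), against 32.1%. Unigene26154, 178 bp long and like Arabidopsis WRKY46, a factor of defence and stomatal control, reached 284 RPKM in carpels. It stood at 91.0 in stamens, 81.4 in sepals, 46.8 in ventral petals, 46.2 in leaves, 28.9 in roots, 3.82 in lateral petals and 2.92 in dorsal petals. Carpels were 3.12 times the stamens (2.44 to 4.02), and dorsal and lateral petals lay apart from ventral petals.

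Unigene44256 (soybean WRKY26) stood at 217 RPKM in carpels, 105 in ventral petals, 93.5 in sepals, 78.3 in stamens, 46.3 in lateral petals, 42.7 in dorsal petals, 12.3 in roots and 2.12 in leaves. Unigene53421 (a maize WRKY) stood at 198 in carpels and between 23.4 in leaves and 58.1 in dorsal petals elsewhere, 3.41 times the dorsal petals (2.76 to 4.22). Unigene18179, 1280 bp long and like WRKY II of Boea hygrometrica, a resurrection plant, completed the carpel-enriched set. It had 108 RPKM in carpels, 51.9 in roots, 28.5 in sepals, 22.7 in stamens, 15.6 in leaves, 15.6 in ventral petals, 2.39 in lateral petals and 1.62 in dorsal petals. With DESeq2 size factors 13 members were called in carpels, and at a Ratio above 4 none was.

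The C domain, stamens and carpels together, called Unigene26154, Unigene53421 and Unigene60893. Unigene60893, with 100 reads, resembled Arabidopsis WRKY41, known from seed dormancy, and stood at 14.9 RPKM in carpels, 7.95 in stamens, 3.88 in sepals and between 0.380 and 3.24 elsewhere. Carpels dominated in all 3, at 1.88 to 5.27 times the stamens.

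Stamens against carpels gave 25 of 65 members (38.5%) at least 2-fold higher in stamens, against 38.6% of all unigenes compared, and 13 (20%) at least 2-fold higher in carpels, against 24.4%. Neither share lay far from its background. The split rested on the scaling, with 19 and 16 under TMM and 16 and 21 under DESeq2 size factors. Unigene53421 had the largest ratio toward carpels, 5.27 (4.08 to 6.89), and Unigene67892 the largest toward stamens, 30.1 (11.5 to 112). The latter, a member like a WRKY of Capsicum chinense, was nearly absent from carpels at 0.884 RPKM (4 reads). It stood at 78.2 RPKM in roots, 67.0 in sepals, 47.5 in dorsal petals, 46.0 in ventral petals, 31.6 in lateral petals, 26.6 in stamens and 11.0 in leaves. Unigene66123 (rice Os01g0826400) had the same gap, with 0.786 RPKM in carpels (3 reads) and 10.9 to 64.9 in the other organs, and its profile followed that of Unigene67892 with an r of 0.99.

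Dorsal petals, the standard of the flower, had 2 enriched members. Unigene6190, like a maize WRKY11, stood at 55.6 RPKM in dorsal petals (182 reads), 19.2 in lateral petals, 18.8 in ventral petals, 16.8 in sepals, 5.44 in roots, 4.93 in stamens, 3.30 in leaves and 2.92 in carpels. Unigene7365, like rice WRKY8, stood at 36.0 in dorsal petals (107 reads), 11.7 in ventral petals, 11.5 in lateral petals, 10.8 in sepals and 0.714 to 3.99 in the other 4 organs. Dorsal petals were 2.90 times the lateral petals (2.17 to 3.92) in the former and 3.12 times (2.11 to 4.71) in the latter. In both, lateral petals, ventral petals and sepals were nearly level, so that both also met the rule for the A domain. Neither dorsal petal call was kept at a Ratio above 4, whereas all 4 A domain calls were.

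In the comparison of dorsal and lateral petals with ventral petals, more members leaned to the ventral petals. Of 64 members, 22 (34.4%) were at least 2-fold higher in ventral petals, against 8.44% of all unigenes compared, and 9 (14.1%) at least 2-fold higher in dorsal and lateral petals, against 8.04%. The members' median log2 ratio was -0.41, against 0.08 over all unigenes. With TMM factors the counts were 23 and 6. The largest ratio toward the ventral petals was that of the WRKY18-like Unigene65237, at 24.5 (11.4 to 62.8) by pooled reads.

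The ventral petals enclose the stamens, and 49 of 102 unigenes with pollen or anther names were higher in ventral petals than in both other petal types. The list summed to 5491 RPKM in ventral petals, 3058 in dorsal and 3353 in lateral petals, 11298 in stamens and 5405 in carpels, and 30 of its unigenes were highest in stamens. The same shares over all unigenes are not given, so the counts of 49 and 30 have no background. Reads were found for 86 to 93 of its unigenes in every organ but the roots, where 70 had reads. How far stamen RNA took part in the ventral petal values was not tested. The B-class pair marks petals as well as stamens and does not separate them. The C- and D-class genes summed to 344 RPKM in stamens, 1.48 in ventral petals and 0 in dorsal and lateral petals.

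The petals category called Unigene7584 and Unigene66246, and both were low outside the corolla. Unigene7584, like a rice WRKY, stood at 81.1 RPKM in dorsal and 78.1 in lateral petals, 23.7 in ventral petals, 5.30 in leaves, 3.01 in sepals, 1.74 in carpels, 1.62 in roots and 0.880 in stamens. Dorsal and lateral petals did not differ beyond counting error, at a ratio of 1.04 (0.880 to 1.22), and together were 3.35 times the ventral petals (2.67 to 4.26). Unigene66246, like soybean WRKY25, stood at 107 in lateral petals, 93.9 in dorsal petals, 50.2 in ventral petals, 14.4 in stamens, 4.72 in sepals, 2.85 in carpels, 1.85 in leaves and 1.45 in roots. The 3 petal types were 45.6 times the leaves by pooled reads (22.1 to 114).

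Both petal members also met the rules for the A domain and the B domain, the latter along with Unigene64123 and Unigene65237, which had another pattern. Unigene64123 (soybean WRKY27) stood at 46.9 RPKM in stamens, 30.1 in ventral petals, 4.25 in sepals, 3.68 in carpels, 2.00 in roots, 1.70 in lateral petals, 1.25 in leaves and 0.867 in dorsal petals. The WRKY18-like Unigene65237 stood at 22.6 in ventral petals, 22.3 in stamens, 2.26 in carpels, 1.57 in lateral petals, 0.490 in sepals, 0.287 in leaves and 0.267 in dorsal petals, with no read in roots. The B domain call of this pair thus came from ventral petals and stamens, at ratios of stamens to ventral petals of 1.56 (1.20 to 2.02) for Unigene64123 and of ventral petals to stamens of 1.01 (0.734 to 1.40) for Unigene65237. The pollen and anther list and the C- and D-class list are given above for the same organs. Whether stamen RNA entered the ventral petal levels of this pair was not tested.

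Ventral petals against stamens gave 12 of 65 members (18.5%) at least 2-fold higher in ventral petals, against 18.2% of all unigenes compared, and 4 (6.15%) at least 2-fold higher in stamens, against 10.5%. With TMM factors or DESeq2 size factors the counts were 10 and 6. Unigene7584 had the largest ratio toward the petals, 27.0 on 85 reads against 3 (8.92 to 133). The 4 members higher in stamens were Unigene58676, Unigene60893, Unigene42154 and Unigene62332, at 2.63, 2.45, 2.02 and 2.00 times, and for the first the interval was 1.44 to 5.02. Unigene58676, like barley WRKY18, was at 16.9 RPKM in stamens, 15.6 in roots, 6.44 in ventral petals, 3.62 in sepals, 2.51 in carpels and 0.425 in leaves, with no read in dorsal and lateral petals. As in the pair above, this member had reads in ventral petals and none or few in the other petal types.

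Sepals and leaves, both green, were compared as well. Of 70 members, 37 (52.9%) were at least 2-fold higher in sepals, against 28.1% of all unigenes compared, and 4 (5.71%) at least 2-fold higher in leaves, against 9.74%. TMM factors gave 28 and 8 and took the median log2 ratio from 1.02 to 0.65 for members and from 0.43 to 0.00 for all unigenes. Among members with a leaf read Unigene69847 again had the largest ratio, 56.2 toward the sepals on 66 reads against 1 (9.75 to 2254), while Unigene847 had 28 reads in sepals and 0 in leaves, at least 7.95-fold higher in sepals against the same floor. Unigene62580 had the largest toward the leaves, 4.93 (1.81 to 16.7).

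The 3 petal types against leaves gave 44 of 72 members (61.1%) at least 2-fold higher in petals, against 39.6% of all unigenes compared, and 12 (16.7%) at least 2-fold higher in leaves, against 14.0%. With TMM factors the counts were 37 and 16. The leaf library entered this comparison and those of roots and of sepals with leaves, so their counts are not independent of each other. The largest ratio toward the leaves was that of the WRKY51-like Unigene62580, with 21 leaf reads against 1 petal read and a ratio of 67.9 (10.9 to 2808).

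The 6 most abundant members all had their lowest RPKM in leaves, and 5 of them also with TMM, where Unigene58826 was lowest in sepals (28.3 RPKM against 33.8 in leaves). The highest mean over the 8 organs was that of Unigene34252, 209 bp long and like a poplar WRKY7, at 138 RPKM. It stood at 388 in lateral petals, 219 in roots, 212 in dorsal petals, 108 in ventral petals, 57.1 in sepals, 54.3 in stamens, 44.9 in carpels and 19.7 in leaves. Lateral petals were 1.78 times the roots (1.53 to 2.07). Unigene3113 and Unigene33389, named after their values were seen, had the same lateral petal maximum (88.7 and 206 RPKM) with roots second (47.2 and 109) and carpels lowest (3.77 and 10.8).

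Unigene44106 (a tobacco WRKY; mean 111 RPKM), Unigene39719 (a poplar WRKY12; 100.5), Unigene69000 (a Solanum chacoense WRKY; 96.5) and Unigene42154 (a barley WRKY7; 84.5) were all highest in carpels. Carpels did not differ from stamens beyond counting error in Unigene42154, at a ratio of 1.03 (0.830 to 1.27), and in Unigene44106, at 1.18 (0.998 to 1.40). Unigene69000, with 4191 reads the most deeply sampled member, resembled a protein described from Solanum chacoense ovules and embryos. It stood at 235 RPKM in carpels, 121 in ventral petals, 97.5 in stamens, 95.8 in sepals, 88.2 in dorsal and 72.2 in lateral petals, 52.4 in roots and 9.96 in leaves, and carpels were 1.94 times the ventral petals (1.77 to 2.14). Unigene59114, matched to the same protein, had 76 reads and was highest in roots at 13.7 RPKM, with 6.96 in carpels. The sixth abundant member, Unigene58826 (rice WRKY1; mean 97.1), was highest in roots at 196 RPKM, with 157 in ventral petals and 26.2 in leaves.

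Members with the least variation over the organs, among the 56 with at least 400 reads, were Unigene6797, Unigene69352 and Unigene45103. Unigene6797, like WRKY20 of Arabidopsis lyrata, ranged from 12.1 RPKM in stamens to 28.4 in sepals, with a coefficient of variation of 0.294. Unigene69352, like Arabidopsis WRKY20, ranged from 21.0 in carpels to 47.6 in roots (0.297), and Unigene45103, like a poplar WRKY7, from 41.4 in leaves to 130.2 in carpels (0.327). Counting error alone would give 0.0899, 0.0740 and 0.0912, so that even these varied beyond it. Of the 3 members resembling WRKY20 of an Arabidopsis species, 2 were thus among the flattest, while Unigene54369, matched to the same protein as Unigene6797, was not and ran from 2.01 in carpels to 53.5 in sepals.

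**Figure D5:**
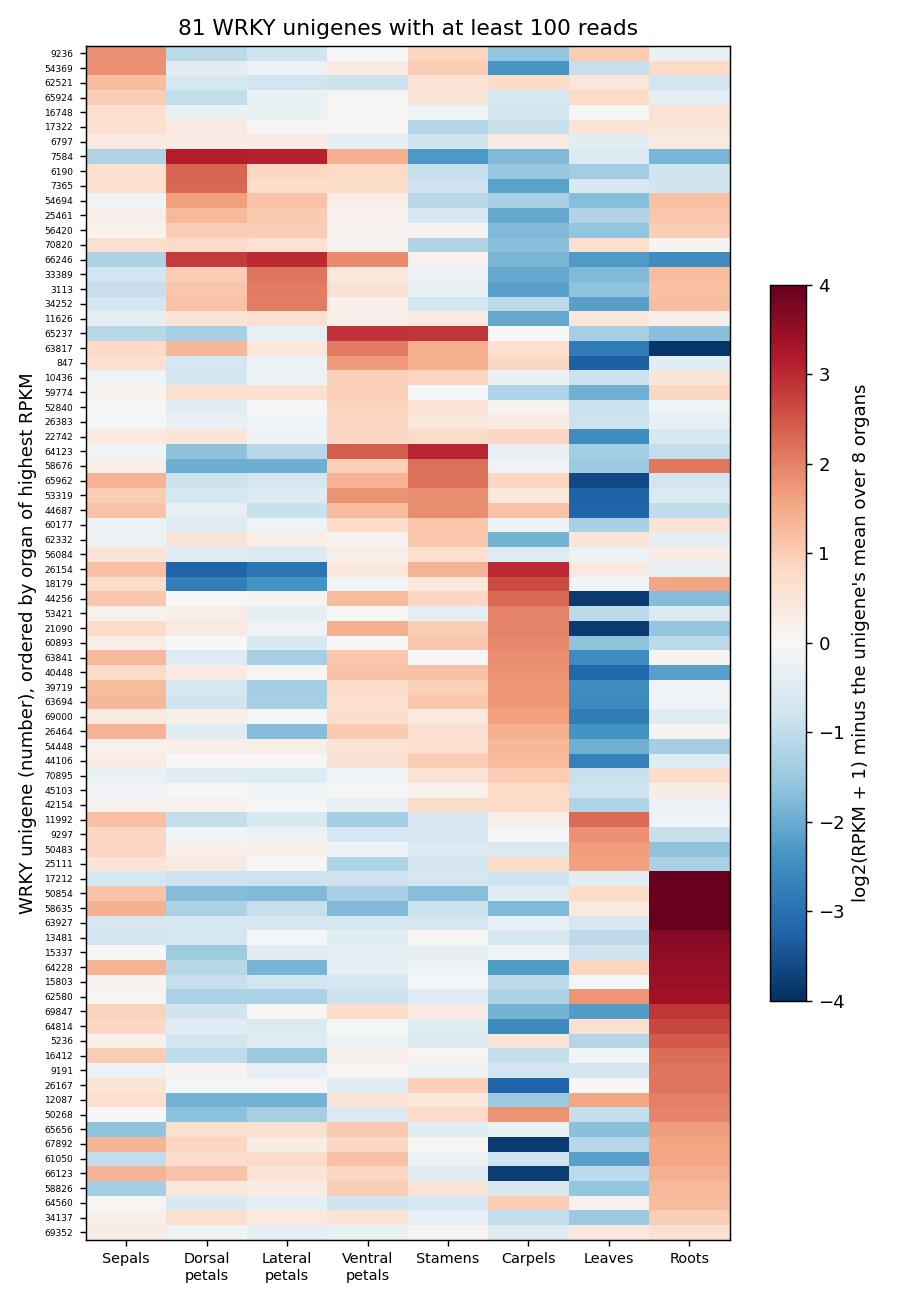
Rows are the 81 WRKY unigenes with at least 100 reads, ordered by the organ of highest RPKM, and columns the 8 organs. Colour is log2(RPKM + 1) minus the unigene's mean over the organs, from blue (below) to red (above) and capped at 4 on either side. The largest blocks are the 25 members highest in roots (30.9%) and the 17 highest in carpels (21.0%), and the leaf column is blue for most rows outside its own block of 4. Roots and carpels also led over all unigenes with as many reads, at 19.5% and 16.6%.

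Members that share a best match need not share a profile. The 26 members on 12 shared nr proteins gave 11 pairs in which both had at least 100 reads. Pearson's r of log2(RPKM + 1) over the 8 organs ran from -0.30 to 0.94 in these pairs, with a median of 0.79, against a median of 0.13 over the 3229 pairs with different matches. The highest were Unigene25461 and Unigene54694 (soybean WRKY54), at 0.94, Unigene58826 and Unigene61050 (rice WRKY1), at 0.94, and Unigene26383 and Unigene53319 (WRKY40 of Arabidopsis lyrata), at 0.91. The third soybean WRKY54 match, Unigene40448, ran otherwise, at -0.14 and -0.01 with the other two, and was highest in carpels at 146 RPKM. Whether pairs with like profiles are pieces of one transcript was not tested.

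An r above 0.9 was reached by 4 of the 11 pairs with a shared match and by 3.34% of the 3229 others. The pair with the highest r among the latter was Unigene39719 (poplar WRKY12) and Unigene63694 (poplar WRKY27), at 0.999. The former stood at 234 RPKM in carpels, 171 in sepals, 138 in stamens, 117 in ventral petals, 64.1 in roots, 42.2 in dorsal and 26.4 in lateral petals, and 11.8 in leaves. The latter stood at 141, 106, 89.9, 66.7, 38.3, 23.8, 16.0 and 6.42 in the same order of organs, so that the order was identical. They are 238 and 582 bp long, and whether they belong to one transcript was not tested.

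Over the 97 members, Spearman's rho of RPKM between organs was highest for dorsal and lateral petals, at 0.97, and for ventral petals and stamens, at 0.92. Over all unigenes these pairs were nearly as close, at 0.96 and 0.88. Roots were furthest from the rest, with 0.26 to carpels, 0.36 to stamens, 0.37 to ventral petals, 0.38 to dorsal petals, 0.41 to lateral petals, 0.43 to sepals and 0.48 to leaves. Over all unigenes the root values lay between 0.60 and 0.69. Sepals and stamens were closer over members, at 0.85, than over all unigenes, at 0.74. Sepals and leaves were less close over members, at 0.65, than over all unigenes, at 0.87. These coefficients are across unigenes, which share libraries and are not independent replicates.

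Genes that act beside WRKY factors were taken by name from the nr texts. Of 26 unigenes named for salicylic acid signalling (NPR1, EDS1, PAD4 and SAG101), the pathway that many WRKY factors serve, 7 (26.9%) were root-enriched, and of 37 chitinases, enzymes that attack fungal cell walls, 12 (32.4%) were, against the 6.18% of all unigenes given above. Of 47 pathogenesis-related proteins 6 were root-enriched and 7 carpel-enriched, where 5.61% of all unigenes were called in carpels. Of 57 MAP kinases 3 were root-enriched, of 23 MAP kinase kinases and above 0 were, and of 9 VQ motif proteins 1 was, with 3 enriched in carpels. Between roots and leaves 15 of 24 chitinases compared were at least 2-fold higher in roots and 4 in leaves, and 10 of 23 salicylic acid unigenes were higher in roots and 5 in leaves, against the 37.0% and 21.2% of all unigenes given above. The counts were 9 and 5 of 50 for MAP kinases, 10 and 2 of 21 for MAP kinase kinases and above, 20 and 4 of 31 for pathogenesis-related proteins, and 3 and 1 of 8 for VQ motif proteins.

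The best match of 3 members, chosen after their values were seen, is known from secondary metabolism. Unigene52840, like cotton WRKY1, a regulator of sesquiterpene synthesis, ranged from 28.2 RPKM in leaves to 96.8 in ventral petals. Unigene26464, like WRKY1 of Artemisia annua, a regulator of the artemisinin pathway, ranged from 6.26 in leaves to 104 in carpels. Unigene62521, like WRKY1 of Coptis japonica, a regulator of berberine synthesis, had 113 reads and ranged from 1.63 in ventral petals to 10.3 in sepals. None of them was called enriched in any organ or combination.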

How the data were processed

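Poly(A) RNA of the 8 organs was fragmented, primed with random hexamers and sequenced by the authors on an Illumina instrument, 1 library per organ. The read counts deposited by the authors are, for each unigene of their assembly (SOAPdenovo and TGICL), the uniquely aligned reads. The aligner's name is not given in the sources read, and no genome build applies. The deposited RPKM values divide these counts by length and library total, and values recomputed from the counts differed by at most 5.58e-09 in relative terms. The deposited percent coverage of each member, highest over the libraries, had a median of 97.8%. Reads that align to more than 1 unigene were not counted, which can lower members that share sequence.

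The tables were joined by unigene, absent unigenes being set to 0. Members were taken by the word WRKY, and the members and lists were chosen with earlier results of these data known. Members named are, per organ, petals or B domain, the 3 with the highest target RPKM among those enriched on at least 10 target reads, the 6 with the highest mean, the 3 with the lowest and highest coefficient of variation among those with 400 reads, the largest ratio in each direction of each of 7 comparisons, and those sharing a match with one of these; others are said to be named after their values were seen. Intervals are exact Poisson (reads) or exact Clopper-Pearson (ratios of reads) at 95%. The rules were tested on simulated data. R 4.3.3 with edgeR 4.0.16 (TMM) and DESeq2 1.42.0 (size factors) and Python 3.11.15 with scipy 1.17.1, pandas 2.3.3, numpy 2.4.6 and matplotlib 3.10.9 were used, with no count model.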

Additional observations from a re-analysis of the deposited data

How the results depend on the processing

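Of 244 recomputed values, 171 stayed within 1.5 times the value given (or within its interval) and 73 did not. Root enrichment gave 19 to 22 members except at a Ratio above 4, where it gave 15 of 97, against 3.27% of all unigenes. Requiring at least 10 target reads, the population SD, members over 200 bp and a pseudocount of 1 RPKM moved no count by more than 1.5 times. At a Ratio above 4, dorsal petals, carpels, leaves and the C domain had 0 members. With the 6 floral organs alone, members called were 8 for sepals, 1 for lateral petals, 1 for stamens, 7 for carpels, 7 for the C domain, 12 for the B domain, 11 for petals and 13 for the A domain. Leaves gave 4 members with TMM and 3 with DESeq2 size factors, and carpels 13 with the latter. Shares of all unigenes are not given for the floral organs alone or for these leaf and carpel counts. Such counts therefore have no background and are not read as a trait of the family.

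A threshold of 4-fold left 15 members higher in floral organs and 12 in leaves and roots, 0 in dorsal and lateral and 8 in ventral petals, 1 in ventral petals and 0 in stamens, 14 in stamens and 2 in carpels, 22 in sepals and 1 in leaves, and 5 in leaves against petals. At least 100 reads left 29 members in roots and 3 in leaves, 14 in leaves and roots against flowers, 14 in ventral against the other petals, 2 in stamens against ventral petals, 11 in stamens and 8 in carpels, 20 in sepals and 0 in leaves, and 4 in leaves against petals. With no minimum of reads 10 members were higher in leaves than roots, 14 in dorsal and lateral and 34 in ventral petals, 15 in stamens against ventral petals, 21 in carpels against stamens and 8 in leaves against sepals. DESeq2 size factors gave 16 in stamens, 21 in carpels and 8 in leaves against sepals, and TMM 8 for the last. Shares of all unigenes at the changed fold and read thresholds are not given, so those counts have no background.

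With TMM the members took 1961 RPM in carpels, 1857 in roots, 1524 in ventral petals, 1432 in sepals, 1245 in dorsal and 1187 in lateral petals, and 1002 in leaves. Without the 5 members with the most reads the values were 1649 in roots, 1291 in ventral petals, 1246 in sepals, 1211 in carpels, 1176 in stamens, 1056 in dorsal and 1006 in lateral petals, and 563 in leaves. With 1 member per nr protein they were 1871, 1523, 1426, 1509, 1388, 1293, 1222 and 723 in the same order. Members highest in an organ became 4 in sepals, 5 in ventral petals and 9 in leaves with TMM, and 38 in roots with no minimum of reads. Shares of all unigenes are not given for these counts of highest organs. The cause of these changes was not tested. No paired analysis was possible because each organ has 1 library. Depth limits members under 100 reads, whose ratios have wide intervals.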
